A study of Mus musculus with 33 samples.

Results

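Genes of the endoplasmic reticulum (ER) stress response, also called the unfolded protein response, were measured in the livers of 33 mice on 3 diets. The set holds 40 genes chosen by symbol: ER chaperones, enzymes of disulfide bond formation, factors of ER-associated degradation (ERAD), the stress sensors with the transcription factor XBP1, and genes of the ATF4 branch. Of these 40 genes, 37 were measured, among 9005 genes tested in all; a gene counted as measured when a probe set of its own reached a log2 expression value of 4 on at least 10 arrays. Atf3 and Asns had probe sets but did not reach that level: Atf3 stayed at or below 3.71 on every array, and Asns reached 4 on 4 arrays. The genes listed as Ero1l and Ero1lb were matched under their current symbols Ero1a and Ero1b, and Vldlr-as was not analysed here.

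The mice were C57BL/6J males, 17 weeks old, and ate their diet for 2 weeks. In the control group (n = 10) the diet was supplied with a sunflower oil, of which 81.3% was oleic acid, at 7% of energy intake. Fenofibrate, which binds the nuclear receptor PPARα and is used against high blood lipids, was added at 0.03% (w/w) to the sunflower oil diet of a further 12 mice. The remaining 11 mice received fish oil at 7% of energy intake instead, with 23.1% EPA and 21.1% DHA, the long-chain polyunsaturated fatty acids of marine oils. All mice had no food between 7 and 13 h on the last day, and they were kept 2 to a cage; the labels do not name cage mates, so the p-values treat livers as independent that may have come from the same cage. In their deviations from the diet mean, livers of the same diet with consecutive array label numbers correlated at a median of 0.14, against -0.13 for other pairs of the same diet; what these numbers stand for is not given in the sources used here, and calls that ended when such pairs were fitted as a random block are named with their values.

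The ER folds proteins that a cell secretes or places in its membranes, and hepatocytes, which secrete most plasma proteins, carry a large ER. When unfolded proteins build up, the membrane sensors IRE1 (encoded by Ern1), PERK (Eif2ak3) and ATF6 are activated: IRE1 splices the Xbp1 messenger RNA into the form that encodes the active transcription factor, PERK slows translation and thereby favours synthesis of ATF4, and ATF6 is cut to release a transcription factor. XBP1 and ATF6 raise the transcription of chaperones, folding enzymes and ERAD factors, and ATF4 raises genes of amino acid supply and stress signalling. The arrays measured total messenger RNA of each gene, so neither Xbp1 splicing nor sensor activity was read here.

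The DNA element through which ATF6 and XBP1 act on chaperone genes is the ER stress response element (ERSE), CCAAT followed by any 9 bases and CCACG. It was searched on both strands of 300 bases of promoter, from 250 before to 50 after the start site, in RefSeq sequences of GRCm38.p6. Such a promoter was given for 34 members, and 10 of them (29.4%) held the element, against 37 of all 27025 genes with a promoter (0.137%), or 39 of 32851 promoters (0.119%). The 10 were Hspa5, Hsp90b1, Calr, Canx, Dnajc3, Creld2, Pdia6, Ero1b, Syvn1 and Derl3, that is, chaperones, disulfide enzymes and ERAD factors. The element is known from its action on chaperone genes, and the members were chosen as genes of this response. The shares, here and for the elements below, are therefore a description and not a test. The promoter of Hspa5, the gene of the chaperone BiP, is shown first because the other members are later set against its messenger RNA; the element is in capitals, its first base 65 bases before the start site.

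Hspa5 promoter, GRCm38.p6 chr2:34771840-34772089, plus strand: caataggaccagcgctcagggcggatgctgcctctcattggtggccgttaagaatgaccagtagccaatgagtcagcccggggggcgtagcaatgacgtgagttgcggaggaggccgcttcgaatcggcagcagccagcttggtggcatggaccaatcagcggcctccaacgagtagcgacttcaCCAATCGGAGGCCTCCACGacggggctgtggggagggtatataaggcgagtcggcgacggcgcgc

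The elements of 5 further members whose expression is described are given with 10 bases on either side, again with the element in capitals. They are written on the strand that reads CCAAT first; in Calr and Derl3 that strand runs against the gene, and in Canx, Pdia6 and Syvn1 with it.

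Calr, GRCm38.p6 chr8:84847065-84847103, plus strand: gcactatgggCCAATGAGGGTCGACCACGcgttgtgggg

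Canx, GRCm38.p6 chr11:50325790-50325828, minus strand: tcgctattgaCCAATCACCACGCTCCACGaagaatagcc

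Pdia6, GRCm38.p6 chr12:17266481-17266519, plus strand: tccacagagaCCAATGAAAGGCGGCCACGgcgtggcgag

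Syvn1, GRCm38.p6 chr19:6046522-6046560, plus strand: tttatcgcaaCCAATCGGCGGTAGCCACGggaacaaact

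Derl3, GRCm38.p6 chr10:75893232-75893270, minus strand: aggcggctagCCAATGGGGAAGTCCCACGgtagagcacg

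A related element, ERSE-II (ATTGG, any base, CCACG), occurred in Dnajb11 and Herpud1 (2 of 34 members, against 12 of 27025 genes, 0.0444%). The ATF4 composite element, TGATGNAAN, occurred in 5 members, Asns, Atf3, Chac1, Herpud1 and Trib3 (14.7%), against 4.50% of all genes, or 3.95% of all promoters. The XBP1 element TGACGTGG was in the promoters of 193 genes (0.714%, or 0.676% of promoters), none of them a member. Herpud1 was the member with more than 1 kind of element. Its promoter is shown because it carries an ATF4 composite element and an ERSE-II, both in capitals, 113 and 52 bases before the start site; the ATF4 composite element reads on the opposite strand, and the elements do not overlap.

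Herpud1 promoter, GRCm38.p6 chr8:94386179-94386428, plus strand: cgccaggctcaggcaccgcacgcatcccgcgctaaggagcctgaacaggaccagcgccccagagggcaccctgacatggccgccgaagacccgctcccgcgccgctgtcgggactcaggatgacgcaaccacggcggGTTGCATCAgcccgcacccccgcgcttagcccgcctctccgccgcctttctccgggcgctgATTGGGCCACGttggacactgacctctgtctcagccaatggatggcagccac

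A match is a description of the letters and not evidence of binding in these livers.

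The livers carried the markers of their labelled tissue. Mean log2 expression in controls was 14.95 for Alb, 15.32 for Apoa1 and 14.91 for Ttr, while the bile duct markers Krt19, Krt7, Epcam and Cldn4 stayed at or below 3.44 on every array. Sox9, also on the bile duct list, passed the filter, with a control mean of 4.31 and a highest value of 5.13. Ass1, on the hepatocyte list, was dim, with a control mean of 5.09. Array medians lay between 2.90 and 2.97 on the log2 scale, and no arrays held identical values. Of the controls, replicates 1, 2 and 9 stood apart from the other 7 in some gene lists. The median deviation of 14 circadian clock genes from the control mean was -1.03, -0.29 and -0.17 in these 3 livers, against 0.07 to 0.41 in the other controls. For 21 acute phase genes it was 0.34, 0.66 and -0.22, against -0.21 to 0.01, and for the 11 ER chaperones 0.27, 0.36 and -0.19, against -0.13 to 0.01. For ERAD factors it was 0.18, 0.10 and -0.23, against -0.06 to 0.06. Elsewhere some of these livers lay among the other controls. These were replicate 9 for disulfide enzymes (-0.13, against -0.17 to 0.06) and replicate 2 for the sensors and XBP1 (0.0025, against -0.11 to 0.11). For the ATF4 branch they were replicates 2 and 9 (0.12 and -0.10, against -0.19 to 0.19). Results that rest on these 3 livers are therefore also given without them; the part of the differences among controls in these results beyond that was not tested.

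Fenofibrate against control asks how the drug changed this gene set. The direction was downward: of 37 measured members 20 fell, 1 rose and 16 did not pass the test (limma, Benjamini-Hochberg adjusted p under 0.05 over all 9005 genes). Over all genes 40.8% were called, 18.9% lower and 22% higher, so the members' share of falls, 54.1%, stands beside 18.9%, and their share of rises, 2.70%, beside 22%. The median difference was -0.24 on the log2 scale over the members and -0.0016 over all genes. Falls were spread over the roles, with 7 of 11 ER chaperones, 3 of 6 disulfide enzymes, 4 of 7 ERAD factors, 3 of the 4 sensors and XBP1, and 3 of 9 genes of the ATF4 branch. Most were modest in size, between 1.10-fold for Edem1 and 2.26-fold for Sdf2l1.

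**Figure D1:**
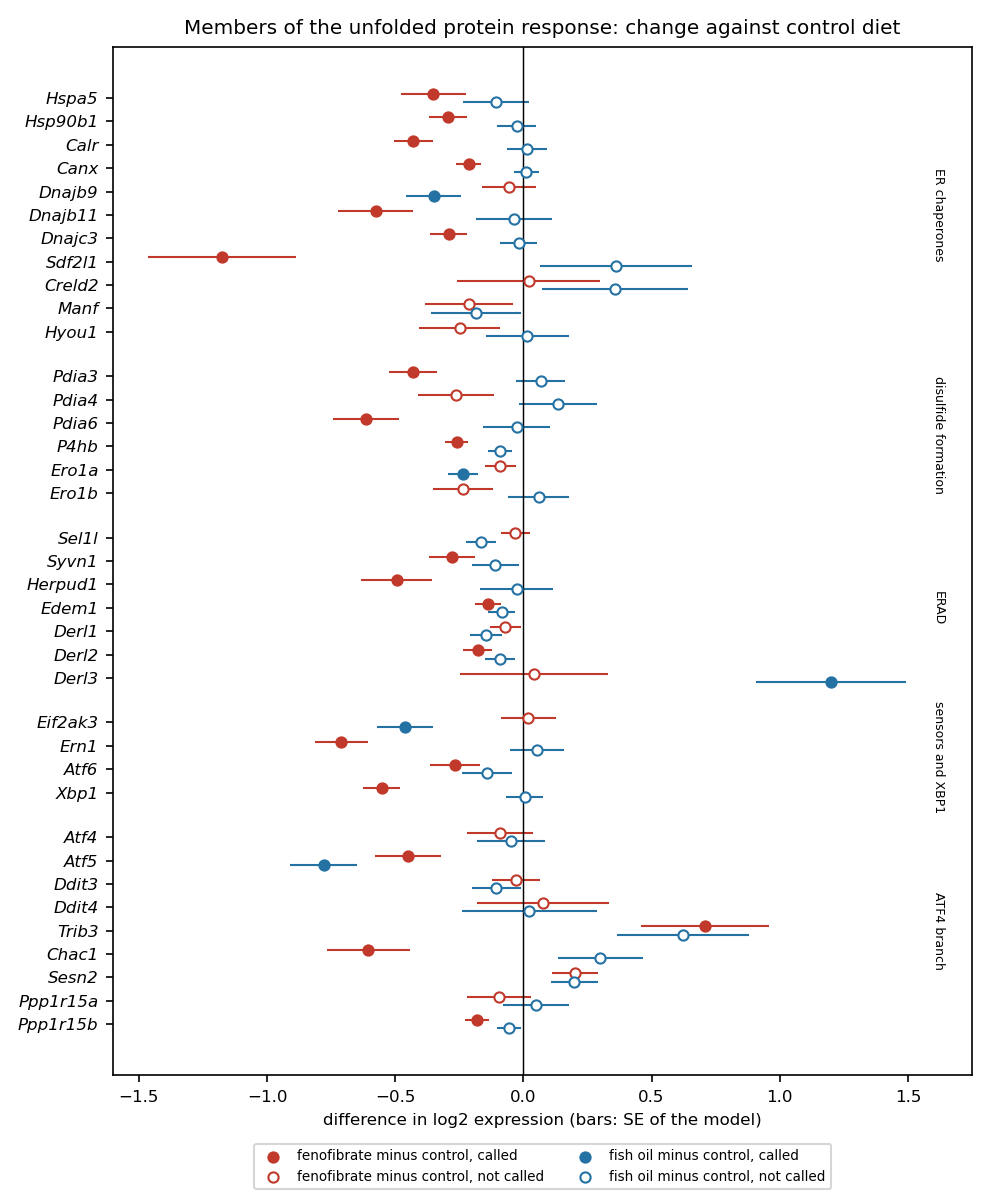
Difference in log2 expression from the control diet for the 37 measured members, grouped by role, on fenofibrate (red, 12 livers) and fish oil (blue, 11 livers) against 10 controls; bars are standard errors of the limma model, filled points passed an adjusted p of 0.05. Filled red points lie left of 0 in every role, down to -1.17 for Sdf2l1, with Trib3 (0.71) to the right; the filled blue points are Dnajb9, Ero1a, Eif2ak3 and Atf5 on the left and Derl3 (1.20) on the right.

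Among the chaperones, calreticulin (Calr), the calcium-binding lectin of the ER lumen, had log2 expression between 12.85 and 13.21 (median 13.03) in controls and between 12.39 and 12.83 (median 12.63) on fenofibrate. Every fenofibrate liver lay below every control. Calr fell by 0.43 ± 0.08 (SE; limma adjusted p = 2.98e-05), or 1.35-fold. Calnexin (Canx), its membrane-bound relative, ran from 11.87 to 12.13 (median 12.03) in controls and from 11.64 to 12.00 (median 11.78) on the drug, with 10 of 12 fenofibrate livers below the lowest control; it fell by 0.21 ± 0.05 (adjusted p = 0.00054). GRP94 (Hsp90b1), the HSP90 protein of the ER, had 12.89 to 13.17 (median 12.97) in controls and 12.54 to 12.94 (median 12.66) on fenofibrate, and fell by 0.29 ± 0.07 (adjusted p = 0.0019).

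BiP (Hspa5), the HSP70 protein that holds the sensors inactive in unstressed cells, lay between 12.64 and 13.51 (median 13.13) in controls and between 12.32 and 13.21 (median 12.85) on fenofibrate. The groups overlapped widely: 3 fenofibrate livers were below the lowest control and 3 controls above the highest fenofibrate liver. Hspa5 fell by 0.35 ± 0.13 (limma adjusted p = 0.025). On this probe set the call rested on the controls that stood apart, since the difference was -0.31 with adjusted p = 0.053 without control replicate 1, -0.31 with 0.056 without replicate 2, and -0.31 with 0.060 without replicates 1, 2 and 9. A second bright Hspa5 probe set gave -0.44 ± 0.13 (limma adjusted p = 0.0080 over probe sets) on all livers. It was not fitted without these controls. The remaining probe set, dim at a mean of 4.02, gave 0.01.

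The co-chaperones of BiP showed the widest range of falls. Sdf2l1, a partner of ER J-domain proteins, ran from 5.48 to 6.99 (median 5.89) in controls and from 4.05 to 5.82 (median 5.05) on fenofibrate. Of the 12 fenofibrate livers, 10 were below the lowest control. Its fall of 1.17 ± 0.29 (limma adjusted p = 0.0014), or 2.26-fold, was the largest among the members. Dnajb11, a J-domain protein that hands substrates to BiP, had 9.27 to 10.09 (median 9.42) in controls and 8.19 to 9.28 (median 9.05) on the drug, with 11 of 12 fenofibrate livers under the lowest control, and fell by 0.58 ± 0.15 (adjusted p = 0.0017). Dnajc3, another J-domain protein and an inhibitor of PERK, fell by 0.29 ± 0.07 (adjusted p = 0.0015) from a control median of 10.82 to 10.50, with overlapping ranges; with the block for consecutive label numbers and without control replicates 1, 2 and 9 the difference was -0.21 (adjusted p = 0.054).

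The other 4 chaperones did not pass the test against control. Dnajb9, the J-domain protein that restrains IRE1, differed by -0.06 ± 0.11, and Creld2 by 0.02 ± 0.28. Manf, a secreted ER stress protein, differed by -0.21 ± 0.17, and Hyou1, the nucleotide exchange factor of BiP, by -0.25 ± 0.16. Creld2 varied most of these: its controls ran from 8.76 to 10.79, with replicates 1 and 2 highest at 10.79 and 10.59. Without control replicates 1, 2 and 9 the differences were 0.29 for Creld2 (limma adjusted p = 0.43) and -0.03 for Hyou1 (0.89).

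Disulfide bonds in the ER are made by protein disulfide isomerases, which the oxidases ERO1α (Ero1a) and ERO1β (Ero1b) recharge. Pdia6 ran from 10.25 to 11.02 (median 10.75) in controls and from 9.46 to 10.48 (median 10.15) on fenofibrate, and 9 of 10 controls were above the highest fenofibrate liver. It fell by 0.61 ± 0.13 (limma adjusted p = 0.00022), or 1.53-fold. Pdia3, which works with calnexin and calreticulin on glycoproteins, ran from 11.73 to 12.16 (median 11.87) in controls and from 10.99 to 11.77 (median 11.48) on the drug, and fell by 0.43 ± 0.09 (adjusted p = 0.00035). The ranges met at their edges, with 11 of 12 fenofibrate livers below the lowest control. P4hb, the classical protein disulfide isomerase, fell by 0.26 ± 0.05 (adjusted p = 2.1e-05) from a narrow control range of 12.58 to 12.80 to 12.32 to 12.65.

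Pdia4 (-0.26 ± 0.15), Ero1a (-0.09 ± 0.06) and Ero1b (-0.24 ± 0.12; limma adjusted p = 0.10) did not pass. For Ero1b the answer depended on the probe set. The brighter one, used throughout, gave that value, and the other gave -0.62 ± 0.14 (adjusted p = 0.00046 over probe sets); their mean gave -0.43 (adjusted p = 0.0048).

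In ERAD, misfolded proteins are moved out of the ER and given to the proteasome. Herpud1, a membrane scaffold of the ERAD complex whose promoter holds the elements shown above, had log2 expression from 11.81 to 12.84 (median 12.63) in controls and from 11.65 to 12.32 (median 11.92) on fenofibrate. Of 10 controls, 7 were above the highest fenofibrate liver, although the lowest control lay within the fenofibrate range. It fell by 0.49 ± 0.14 (limma adjusted p = 0.0046), or 1.41-fold. The lowest controls were replicates 1, 2 and 9, at 11.81, 11.87 and 11.94. Without them the Herpud1 difference was -0.74 (adjusted p = 1.9e-05).

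Smaller falls were seen for Syvn1, the ubiquitin ligase HRD1, at 0.28 ± 0.09 (limma adjusted p = 0.013), for Derl2, a channel subunit, at 0.18 ± 0.06 (adjusted p = 0.012), and for Edem1, which trims mannose from misfolded glycoproteins, at 0.14 ± 0.05 (adjusted p = 0.027). The Syvn1 control range, 9.44 to 10.28, reached far above the fenofibrate range of 9.31 to 9.62, and its difference was -0.16 (adjusted p = 0.10) without control replicates 1, 2 and 9. Edem1 missed the threshold without control replicate 2 (-0.13, adjusted p = 0.051) or fenofibrate replicate 3 (-0.12, adjusted p = 0.052). When all probe sets of a gene were averaged, Edem1 (-0.12, adjusted p = 0.12) and Derl2 (-0.12, adjusted p = 0.20) were no longer called. Sel1l, the adaptor of HRD1 (-0.03 ± 0.06), Derl1 (-0.07 ± 0.06) and Derl3 (0.04 ± 0.29) did not pass.

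Of the sensors and XBP1, the transcription factor gene gave the clearest fall. Xbp1 ran from 11.79 to 12.39 (median 12.17) in controls and from 11.22 to 11.95 (median 11.65) on fenofibrate. Of 10 controls, 9 were above the highest fenofibrate liver, and the remaining one, replicate 9 at 11.79, was the lowest control. Xbp1 fell by 0.55 ± 0.07 (limma adjusted p = 1.68e-07), or 1.47-fold, and its 4 probe sets were all called lower, with differences from -0.27 to -0.56.

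Ern1, the IRE1 gene, ran from 8.86 to 9.45 (median 9.18) in controls and from 7.97 to 8.79 (median 8.54) on the drug, with no overlap between the groups. It fell by 0.71 ± 0.10 (limma adjusted p = 1.29e-06), or 1.64-fold. This value comes from the brightest of 3 probe sets; the other 2 gave -0.25 and -0.24 and were not called. Atf6 likewise fell by 0.27 ± 0.10 (adjusted p = 0.027) on its brightest probe set, from a control median of 9.30 to 9.05, while its other 2 gave 0.05 and 0.01, and the mean of its probe sets gave -0.07 (adjusted p = 0.49). The Atf6 call also ended without control replicate 1 or fenofibrate replicate 4, 5 or 11, with differences between -0.24 and -0.22 and adjusted p between 0.051 and 0.063, and with a random block for livers of consecutive label number (-0.27, adjusted p = 0.058). Eif2ak3, the PERK gene, differed by 0.02 ± 0.11 and did not pass.

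**Figure D2:**
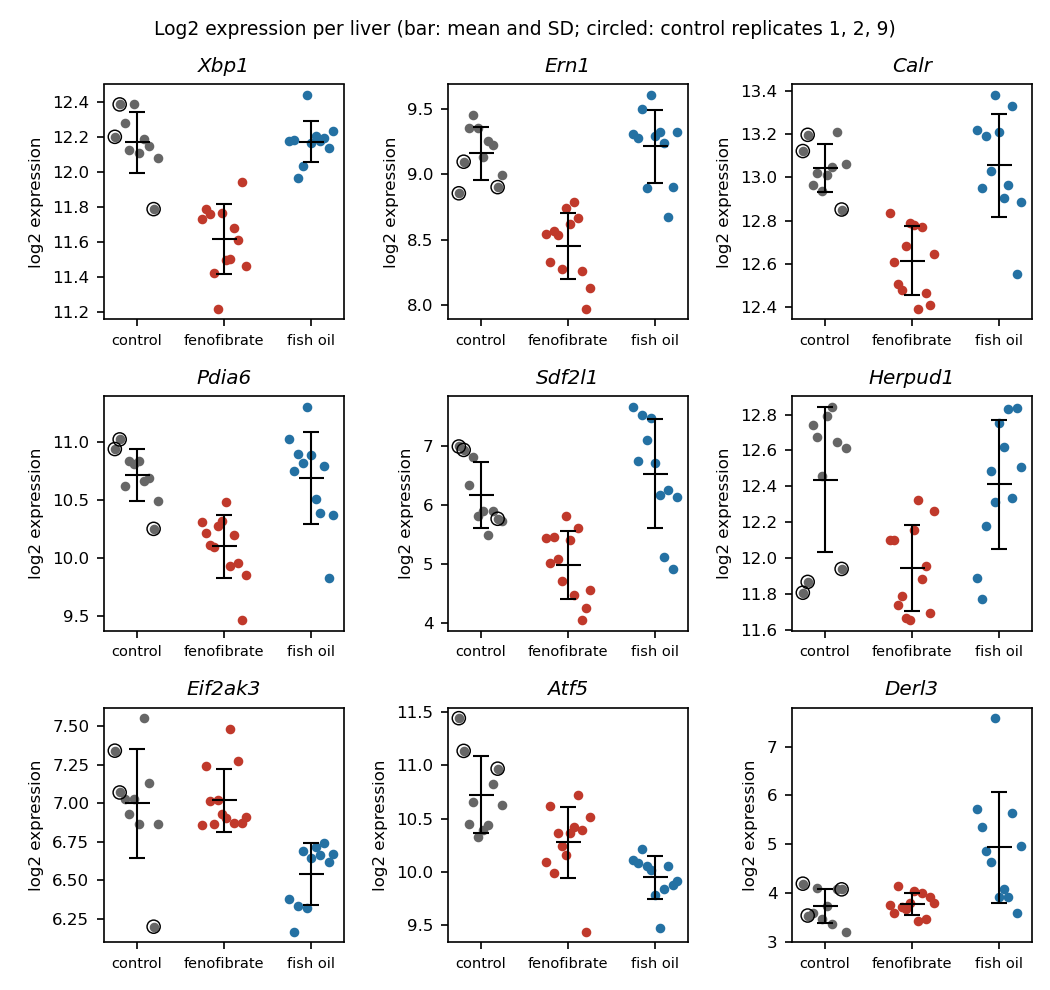
Log2 expression in each liver of 9 members by diet (grey control, 10 livers; red fenofibrate, 12; blue fish oil, 11); black bars are the mean and SD, and circles mark control replicates 1, 2 and 9. Calr and Ern1 on fenofibrate lie wholly below the controls, Atf5 on fish oil lies wholly below them (up to 10.21 against 10.32 and above), and Derl3 on fish oil spreads from 3.59 to 7.59.

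The ATF4 branch gave mixed values. Atf4 itself, which is controlled largely at translation, differed by -0.09 ± 0.13 between fenofibrate and control, and Ddit3, the gene of the transcription factor CHOP, by -0.03 ± 0.09; neither passed. Chac1, a glutathione-degrading enzyme, ran from 5.90 to 7.06 (median 6.48) in controls and from 5.16 to 6.43 (median 5.82) on the drug, with 7 of 12 fenofibrate livers below the lowest control, and fell by 0.60 ± 0.16 (limma adjusted p = 0.0031). Ppp1r15b, a regulatory subunit of the phosphatase that acts on eIF2α, fell by 0.18 ± 0.05 (adjusted p = 0.0021), with 9 of 12 fenofibrate livers below the lowest control; the mean of its probe sets gave -0.13 (adjusted p = 0.17).

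Atf5, a transcription factor related to ATF4, ran from 10.32 to 11.44 (median 10.64) in controls and from 9.44 to 10.72 (median 10.36) on fenofibrate, and fell by 0.45 ± 0.13 (limma adjusted p = 0.0051). Without control replicates 1, 2 and 9 the difference was -0.25 (adjusted p = 0.092). Trib3, a pseudokinase that ATF4 and CHOP induce, was the member that rose, by 0.71 ± 0.25 (adjusted p = 0.023). Its controls ran from 4.02 to 6.89 (median 6.09) and its fenofibrate livers from 5.72 to 7.11 (median 6.49), and the 2 lowest livers of all were control replicates 2 and 1, at 4.02 and 4.72. The difference was 0.59 (adjusted p = 0.055) without replicate 1, 0.51 (0.061) without replicate 2, and 0.28 (0.29) without replicates 1, 2 and 9.

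Ppp1r15a, the inducible counterpart of Ppp1r15b (-0.10 ± 0.12), Sesn2 (0.20 ± 0.09, limma adjusted p = 0.067) and the dim Ddit4 (0.08 ± 0.26) did not pass. Sesn2 did pass without control replicate 8 (0.26, adjusted p = 0.015), fenofibrate replicate 3 (0.22, 0.046) or fish oil replicate 4 (0.20, 0.0498).

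Without control replicates 1, 2 and 9, 17 members fell on fenofibrate, all of them among the 20; Hspa5, Syvn1, Atf5 and Trib3 were no longer called. With the block for consecutive label numbers and without these 3 livers 14 fell, and Dnajc3, Edem1 (limma adjusted p = 0.061) and Atf6 were lost as well. Over all 9005 genes, 1786 fell in the former fit and 1546 in the latter, against 1698 in the main fit. The 12 members called in every alternative that gives 1 value per gene were Hsp90b1, Calr, Canx, Dnajb11, Sdf2l1, Pdia3, Pdia6, P4hb, Herpud1, Ern1, Xbp1 and Chac1. Of the 10 members with an ERSE, 7 fell on fenofibrate (median difference -0.28); of the 22 measured members whose promoter had none, 11 fell and 1 rose (median -0.16), beside 18.9% of all genes lower and 22% higher. Of the 27 other genes with an ERSE 4 were measured, of which 1 rose and 1 fell (median 0.18). No test between these groups of genes was made.

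Some markers of several cell types were lower on fenofibrate too, beside 18.9% of all genes lower and 22% higher. Of 8 hepatocyte markers 5 fell (median -0.13), and of 6 stellate cell markers 4 fell and 1 rose (median -0.29). Of 8 sinusoidal endothelial markers 4 fell and 1 rose (median -0.21). Of 8 Kupffer cell markers 2 fell (median -0.23), near the share over all genes. Among 21 genes of the acute phase list, 13 fell and 1 rose (median -0.50). Of the lymphocyte and plasma cell markers, Ighm, an antibody heavy chain gene, was measured: it rose by 0.67 on fenofibrate (limma adjusted p = 0.033), from a mean of 6.15 in controls to 6.81, and reached 8.67 on 1 array. The other 6 on that list with a probe set, Mzb1, Jchain, Cd79a, Cd79b, Ms4a1 and Cd3e, did not pass the filter and reached at most 4.30 on any array; Mzb1 and Jchain had mean levels of 2.22 to 2.63. Of the acinar markers only Cela1, a gene the liver also expresses, was measured; it fell by 1.13, while Cpa1 and Ctrb1 stayed at or below 2.56. In whole liver, fewer cells of a type and less RNA per cell cannot be told apart, and the part of cell composition in the members' falls was not tested.

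Other genes of the same compartment were read from lists chosen by function, again beside 18.9% of all genes lower and 22% higher on fenofibrate. Of 31 other ER folding genes, 16 fell on fenofibrate and the other 15 did not pass the test (median -0.20). Ppib, a prolyl isomerase of the ER, fell by 0.70 ± 0.05 (limma adjusted p = 1.98e-12), Calu, a calcium-binding protein of the secretory pathway, by 0.35 ± 0.06, and Erp44, which retains ERO1 in the early secretory pathway, by 0.31 ± 0.06. Of 26 genes of the translocon, signal peptidase and oligosaccharyltransferase, which bring new proteins into the ER and glycosylate them, 18 fell and 3 rose (median -0.24). Tram1 fell by 0.63 ± 0.05 (adjusted p = 8.27e-12), Ssr4 by 0.43 ± 0.05 and Rpn2 by 0.37 ± 0.05.

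The remaining lists were divided, and their counts stand beside the same shares over all genes (18.9% lower, 22% higher). Of 22 other ERAD genes, 6 fell and 4 rose on fenofibrate (median -0.05): the lectin gene Os9 fell by 0.61 ± 0.05 (limma adjusted p = 4.56e-11) and Edem2 by 0.54 ± 0.11, and Vcp, the ATPase that pulls substrates from the membrane, rose by 0.26 ± 0.05. Of 16 other stress regulators, 5 rose and 4 fell. Mbtps2, a protease that cuts ATF6, rose by 0.46 ± 0.09 (adjusted p = 0.00012), and the eIF2α kinase genes Eif2ak4 and Eif2ak1 rose by 0.36 ± 0.10 and 0.15 ± 0.04. Of 25 other ATF4 targets, 7 fell and 3 rose (median -0.10): Cth, of cysteine synthesis, fell by 0.51 ± 0.09, the tRNA synthetase gene Eprs fell by 0.28 ± 0.05, and Slc3a2, an amino acid transporter subunit, rose by 0.42 ± 0.08.

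**Figure D3:**
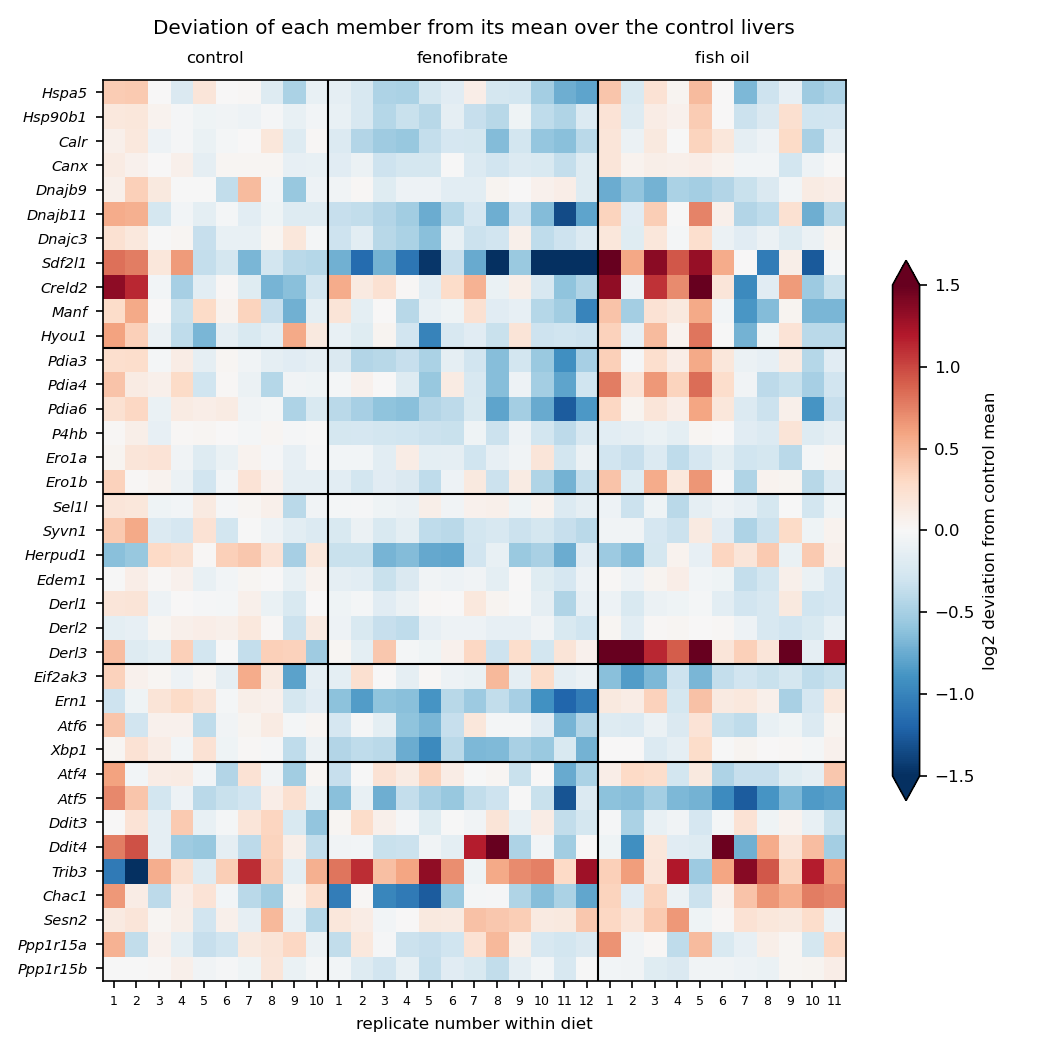
Deviation of each of the 37 measured members (rows, by role, in the order chaperones, disulfide formation, ERAD, sensors and XBP1, ATF4 branch) from its mean over the 10 control livers, in each of the 33 livers (columns, by diet and replicate number); red is higher and blue lower, with colours saturating at 1.5 on the log2 scale. The fenofibrate columns are mostly blue in the upper 4 blocks, where the median chaperone deviation per liver ran from -0.52 to -0.12; fish oil columns are red in some livers and blue in others, from -0.49 to 0.48.

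Fish oil against control moved few members. Of 37, 4 fell, 1 rose and 32 did not pass (limma adjusted p under 0.05), beside 14.5% of all genes called, 7.00% lower and 7.53% higher; the members' shares of falls (10.8%) and of rises (2.70%) are near or below this background. The median difference over the members was -0.03, against 0.01 over all genes. Both diet comparisons use the same 10 controls, so their values are not independent.

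Atf5 had log2 expression from 10.32 to 11.44 (median 10.64) in controls and from 9.47 to 10.21 (median 10.02) on fish oil. Every fish oil liver was below every control. Atf5 fell by 0.78 ± 0.13 (limma adjusted p = 5.8e-05), or 1.72-fold, and by 0.58 (adjusted p = 0.0011) without control replicates 1, 2 and 9. Eif2ak3, the sensor PERK, ran from 6.20 to 7.55 (median 7.03) in controls and from 6.16 to 6.74 (median 6.64) on fish oil; 9 of 10 controls were above the highest fish oil liver, and the exception was control replicate 9. It fell by 0.46 ± 0.11 (adjusted p = 0.0035), or 1.38-fold.

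Dnajb9 ran from 10.34 to 11.39 (median 10.90) in controls and from 10.16 to 11.02 (median 10.47) on fish oil, and fell by 0.35 ± 0.11 (limma adjusted p = 0.025). The ranges overlapped, and the call ended when a single control (replicate 2 or 7) or fish oil liver (replicate 1 or 3) was left out, with differences between -0.31 and -0.30 and adjusted p between 0.051 and 0.056. It also ended with the block for consecutive label numbers (-0.34, adjusted p = 0.056). Ero1a fell by 0.24 ± 0.06 (adjusted p = 0.0067), from 7.88 to 8.28 in controls to 7.68 to 8.10 on fish oil, with 8 of 11 fish oil livers below the lowest control. The mean of its probe sets gave -0.11 (adjusted p = 0.34).

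Derl3, an ERAD gene of the derlin family whose promoter element is shown above, was the member that rose on fish oil. Its controls were dim, from 3.20 to 4.19 (median 3.66), and its fish oil livers ran from 3.59 to 7.59 (median 4.86), with 7 of 11 above the highest control. It was 1.20 ± 0.29 higher (limma adjusted p = 0.0043), and 0.94 higher (adjusted p = 0.0022) without fish oil replicate 5, the liver at 7.59. Derl3 reached a log2 value of 4 in 8 fish oil, 4 control and 3 fenofibrate livers, so it entered the test mostly through the group in which it was high, and its fold depends on how dim values were corrected.

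The members with the firmest falls on fenofibrate did not pass the test on fish oil. The differences from control were 0.01 ± 0.08 for Calr, 0.05 ± 0.11 for Ern1, -0.03 ± 0.08 for Hsp90b1 and 0.0046 ± 0.074 for Xbp1, with Sdf2l1 at 0.36 ± 0.30. A difference that did not pass does not show that the groups were equal. Sel1l (-0.16 ± 0.06) lay just outside the threshold, with limma adjusted p = 0.056, and passed without control replicate 9 (-0.21, adjusted p = 0.0044) or fish oil replicate 9 (-0.18, 0.033). These values come from its brightest probe set. The other Sel1l probe sets gave differences from -0.12 to 0.10 and were not called. Without fish oil replicate 9, which had an acute phase deviation of 0.56, 7 members fell, the 4 above with Sel1l, Derl1 (-0.17) and P4hb (-0.12). The count over all genes in that fit is not given here. The mean of the Derl1 probe sets was called lower on all livers (-0.18, limma adjusted p = 0.010).

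Trib3 was 0.62 ± 0.26 higher on fish oil than control (limma adjusted p = 0.10). It passed without control replicate 7 (0.75, adjusted p = 0.043) or fish oil replicate 5 (0.74, 0.043). Without control replicates 1, 2 and 9 the Trib3 difference was 0.20 (adjusted p = 0.59). Sesn2 passed without control replicate 8 (0.25, 0.046). Without control replicates 1, 2 and 9, 6 members fell on fish oil, the 4 above with Sel1l (-0.17) and Derl2 (-0.18). In that fit 722 of all 9005 genes fell, against 630 in the main fit.

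The other lists on fish oil stand beside 7.00% of all genes lower and 7.53% higher. Of 31 ER folding genes 5 fell on fish oil and the rest did not pass. Fkbp14, a prolyl isomerase, fell by 0.95 ± 0.12 (limma adjusted p = 4.08e-07) and Rcn1, a calcium-binding protein, by 0.44 ± 0.09. Of 26 translocon and related genes 1 rose (Sec11c, 0.21) and 1 fell (Tram1, by 0.26), and of 22 other ERAD genes 1 rose (Rnf139, 0.16). Of 16 stress regulators 3 rose and 1 fell, the risers being Eif2ak1 (0.25), Mbtps1, the protease that makes the first cut in ATF6 (0.13), and Creb3l3, a liver transcription factor of the ER membrane (0.17). Of 25 other ATF4 targets 3 fell and 1 rose: Fgf21, a hormone made by the liver, fell by 2.22 ± 0.41 (adjusted p = 0.00019), and Slc1a4 by 0.50 ± 0.11.

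The drug and the oil were compared directly in the same model. Of 37 members, 17 were lower and 4 higher on fenofibrate than on fish oil (limma adjusted p under 0.05), beside 38.9% of all genes called, 19.1% lower and 19.8% higher; the shares among members were 45.9% and 10.8%. The median difference was -0.17 over the members and -0.0091 over all genes. All 6 disulfide enzymes differed, 5 lower on fenofibrate and Ero1a higher, as did 7 of 11 chaperones, 6 of them lower and Dnajb9 higher.

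Xbp1 had log2 expression from 11.97 to 12.44 (median 12.18) on fish oil, and all 12 fenofibrate livers (11.22 to 11.95) lay below that range. The difference was -0.56 ± 0.07 (limma adjusted p = 9.82e-08). Ern1 was 0.76 ± 0.10 lower on fenofibrate than on fish oil (-0.76; adjusted p = 2.42e-07), with 10 of 12 fenofibrate livers below the lowest fish oil liver. Sdf2l1 ran from 4.91 to 7.66 (median 6.72) on fish oil and was 2.90-fold lower on fenofibrate (-1.54 ± 0.28, adjusted p = 4.76e-05), although 5 of 12 fenofibrate livers lay below the fish oil range.

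Chac1 ran from 6.09 to 7.18 (median 6.75) on fish oil and was 1.87-fold lower on fenofibrate (-0.90 ± 0.16, limma adjusted p = 2.45e-05). Derl3 was lower by 1.16 ± 0.28 (-1.16; adjusted p = 0.0012), a difference between dim values on fenofibrate and spread values on fish oil. Eif2ak3 went the other way: all 12 fenofibrate livers (6.86 to 7.48) were above all 11 fish oil livers (6.16 to 6.74), a difference of 0.48 ± 0.10 (adjusted p = 0.00041). Dnajb9 was 0.29 ± 0.10 higher (adjusted p = 0.023), with 8 of 11 fish oil livers below the lowest fenofibrate liver.

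Several of the smaller contrasts between the diets depended on single livers, and the 5 named next also missed the threshold with the block for consecutive label numbers (limma adjusted p between 0.051 and 0.073). The differences were -0.40 ± 0.15 for Pdia4, 0.15 ± 0.06 for Ero1a, -0.30 ± 0.11 for Ero1b, 0.33 ± 0.12 for Atf5 and -0.13 ± 0.05 for Ppp1r15b, with limma adjusted p between 0.028 and 0.043. The Pdia4 call ended without fenofibrate replicate 8 or 11 or fish oil replicate 1, 3 or 5 (-0.36 to -0.33), and the Ppp1r15b call without fenofibrate replicate 5 or 8 or fish oil replicate 11 (-0.11 in each). The Ero1a call ended when any 1 of 14 livers was left out, fenofibrate replicates 1, 2, 4, 9, 10 and 12 and fish oil replicates 1, 2, 3, 4, 5, 7, 8 and 9 (0.12 to 0.15). The mean of the Ero1a probe sets gave 0.04 (adjusted p = 0.68). Ero1b lost its call without fenofibrate replicates 5, 8, 10, 11 or 12 or fish oil replicates 1, 3, 4 or 5 (-0.29 to -0.24), and Atf5 without fenofibrate replicates 2, 8, 9, 10 or 12 or fish oil replicates 6, 7 or 8 (0.28 to 0.32). These Ero1b values come from its brighter probe set. The other Ero1b probe set gave -0.80 ± 0.13 (limma adjusted p = 1.15e-05 over probe sets). Hspa5, at -0.25 ± 0.12 (adjusted p = 0.12), passed only without fish oil replicate 7 (-0.30, 0.048) among single livers, and Sel1l, at 0.13 ± 0.06 (0.060), passed without control replicate 9 (0.13, 0.026), fenofibrate replicate 11 (0.15, 0.037) or fish oil replicate 9 (0.15, 0.037). Across its 5 probe sets the Sel1l difference ran from -0.17 (called lower, limma adjusted p = 0.048 over probe sets) to 0.15.

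Livers on the same diet also differed from each other in these genes. The median SD over the 37 members was 0.26 in controls, 0.22 on fenofibrate and 0.27 on fish oil (log2 scale), against 0.21, 0.19 and 0.19 over all genes tested. For 18 members the highest SD was that of the fish oil group. The chaperones' median SD was 0.38 on fish oil, 0.30 in controls and 0.25 on fenofibrate, and for disulfide enzymes it was 0.32, 0.17 and 0.23. For ERAD factors the order differed, with 0.15, 0.17 and 0.11. These spreads were not compared by a test.

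To see which members varied together, each was correlated with Hspa5 over the 33 livers after the mean of its diet was subtracted (36 relations, permutation within diets, two-sided, 100000 resamples, Benjamini-Hochberg over the 36). Hspa5 had a positive correlation with 19 members and a negative one with Trib3 at an adjusted permutation p under 0.05; for 16 of the 19 Spearman's rho passed as well. By role these were 8 of 10 chaperones, 4 of 6 disulfide enzymes, 5 of 7 ERAD factors and 2 of 9 genes of the ATF4 branch, and for the sensors and XBP1 none of 4 passed (median r 0.26; Ern1 was highest, at 0.36 with adjusted permutation p = 0.083, and Xbp1 was at 0.21). Cage mates may be among the livers, so these p-values may be too small. Genes outside the set were not correlated with Hspa5, so these counts do not show a trait particular to the members.

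The closest member was Manf, with r = 0.94 and rho = 0.93 (adjusted permutation p = 5.14e-05 and 6e-05; 1e-05 before adjustment, the smallest the resamples can give). Within the diets its r was 0.93 in controls, 0.89 on fenofibrate and 0.97 on fish oil, and it was 0.92 without the 2 livers farthest from the Hspa5 median, fish oil replicates 5 and 7. Creld2 followed with r = 0.91 (rho 0.89; 0.88 without those 2 livers), then Pdia6 with 0.84 (rho 0.87; 0.84), Dnajb11 with 0.83 (rho 0.79; 0.80), Pdia3 with 0.78 (rho 0.75; 0.76) and Ero1b with 0.78 (rho 0.70; 0.71). Manf and Creld2, the members that followed Hspa5 most closely from liver to liver, passed the test in none of the 3 diet comparisons.

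Trib3 ran opposite to Hspa5, with r = -0.56 and rho = -0.46 (adjusted permutation p = 0.0022 and 0.022), and -0.45 without the 2 farthest livers. Its r was -0.59 in controls, -0.27 on fenofibrate and -0.77 on fish oil, and -0.53 without control replicates 1, 2 and 9. Some relations rested on 1 diet. Hyou1 had r = 0.95 with Hspa5 on fish oil, against 0.07 in controls and 0.08 on fenofibrate; over all livers it was 0.49, and 0.31 without the 2 farthest. Dnajb9 had 0.62 in controls and -0.71 on fish oil, and -0.17 over all livers (adjusted permutation p = 0.45); these differences between diets were not tested.

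**Figure D4:**
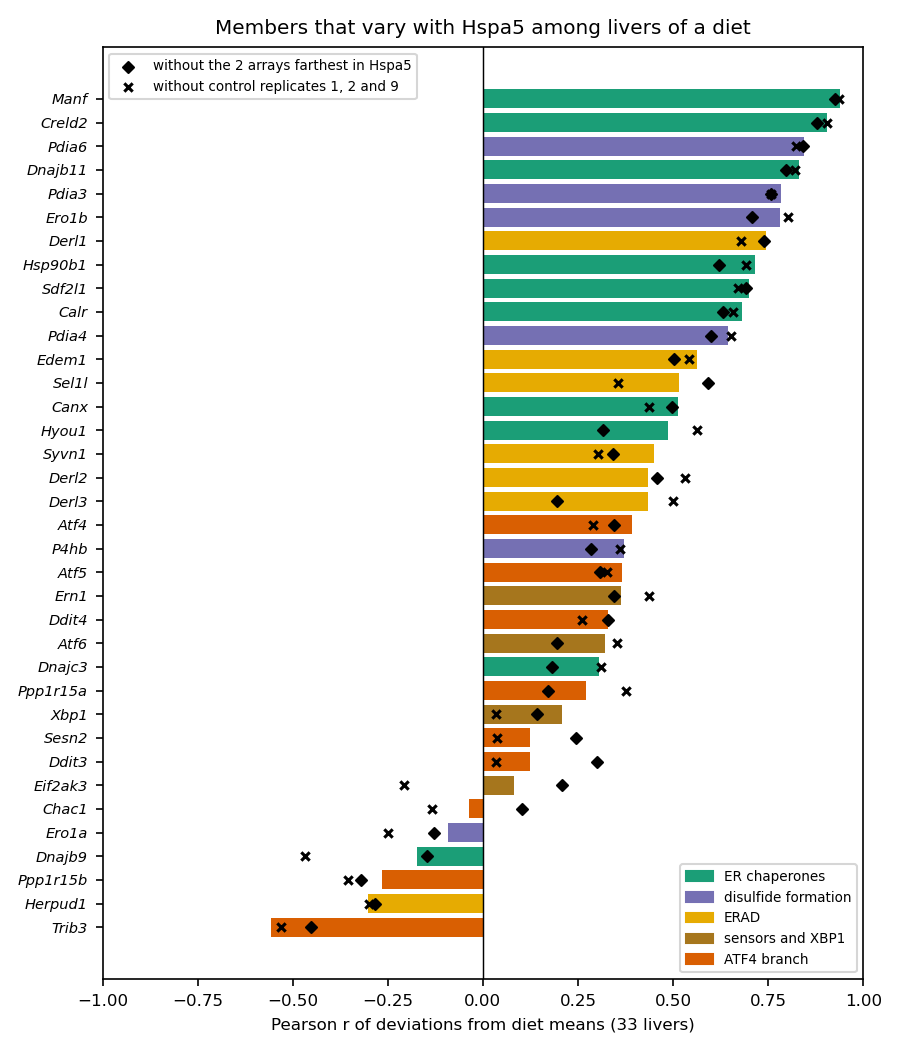
Pearson correlation of each of 36 members with Hspa5 over 33 livers, computed on deviations from the diet means (bars, coloured by role); black diamonds omit the 2 livers farthest from the Hspa5 median, and the other markers omit control replicates 1, 2 and 9. Manf (0.94), Creld2 (0.91) and Pdia6 (0.84) stand at the top and Trib3 (-0.56) at the bottom, and the markers stay near the bars for the leading members.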

How the data were processed

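Each of 33 livers was hybridised to its own Affymetrix mouse expression array. The deposited values are log2 expression levels of probe sets. They come from GCRMA 2.24.1, which the submitters' processing notes name; this method corrects background and normalizes arrays together, which compresses differences between dim probe sets. Arrays have no read depth, so the number of arrays limits the precision.

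Of 45101 probe sets, 64 controls were left out. A probe set was kept where at least 10 arrays reached a log2 value of 4 (17162). Of these 15203 carry 1 gene in the platform annotation, with symbols updated through RefSeq, and the brightest on average was used for each gene (9005 genes). The 40 members had 88 probe sets, 73 of them past the filter. One linear model over the 3 diets was fitted to all 9005 genes with limma 3.58.1 (statmod 1.5.0, R 4.3.3; lmFit, contrasts, eBayes, two-sided), with Benjamini-Hochberg adjustment; called means an adjusted p under 0.05. Every member was described, and of each other list the 3 genes with the smallest adjusted p per comparison were eligible to be named.

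The members, the other gene lists and the tests were chosen with earlier results of these data known. Simulated data with 200 changed genes were used to test the fit: for fenofibrate against control it called 64% of genes changed by 0.3 on the log2 scale and 84% of those changed by 0.5, and for fish oil against control 50% and 86%. The simulated livers were independent, and 200 of 9005 genes changed, whereas 40.8% of genes were called on fenofibrate in the data. These rates may therefore not hold for the real livers. The alternatives changed the filter, the probe set, the scaling, how variances and arrays were weighted, which arrays entered, and blocks. The array label number as a covariate and the pair block without control replicates 1, 2 and 9 were added after seeing the data. Leaving out control replicates 1, 2 and 9 was planned, but it too came from these data, since earlier results had shown these livers apart.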

Additional observations from a re-analysis of the deposited data

Results flagged for a closer look

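In the control group of 10 livers, the highest and the lowest liver were set against the others for each of the 37 measured members by Dixon's criterion, under which chance alone flags about 1 in 20 groups; 3 members were picked out. In each the low liver was control replicate 9. Its Sel1l value was 9.41, with the next control at 9.75; its Eif2ak3 value was 6.20, with the next at 6.86; and its Xbp1 value was 11.79, with the next at 12.08. This liver was also low in the 4 sensors and XBP1 together (median deviation -0.32 from the control mean) and in ERAD factors (-0.23). Without it, the Sel1l difference between fish oil and control passed the test on the probe set used (-0.21, limma adjusted p = 0.0044).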

How the results depend on the processing

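Over the 45 alternatives that give 1 value per gene, 33 of which left out 1 liver each, 4980 comparisons of a member with its main result were made: 96 lost a call, 33 gained one and 0 reversed a call, while 131 changed sign with no call in either fit. The 1 member higher on fenofibrate than on control, Trib3, became 0 members under array weights, under the replicate block, without control replicates 1, 2 and 9, and with a random block for livers of consecutive label number, again without those livers; leaving out single livers gave 0 to 2. The 20 members lower on fenofibrate ranged from 14 (that block without control replicates 1, 2 and 9) to 22 (array label number as a covariate). Over all genes 1546 and 1827 were lower in these fits, against 1698 in the main fit. The 1 member higher on fish oil than on control was 0 under the stricter filter, where Derl3 was not tested, and 1 to 2 without single livers; the 4 lower members were 3 to 7 without single livers. The 4 members higher on fenofibrate than on fish oil were 2 with the block for consecutive label numbers on all livers and 2 to 5 without single livers; the 17 lower members ranged from 14 to 18. Apart from the filter, the cause of these changes was not tested.

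Replicate numbers of different diets name separate mice. Livers with the same number on different diets correlated at a median of 0.05 (-0.21 to 0.35, 12 of 31 above 0.1) in their deviations from the diet means. For livers with different numbers on different diets the median was -0.02 (-0.41 to 0.40, 84 of 331 above 0.1). These values do not settle whether the numbers pair the livers. Livers of the same diet with consecutive label numbers had a median of 0.14 (8 of 16 above 0.1), and the block for them a correlation of 0.23. With the replicate block, 17 members were lower and 0 higher on fenofibrate than on control. Hspa5 (-0.27, limma adjusted p = 0.053), Edem1 (0.071), Atf6 (0.084) and Trib3 (0.68, 0.053) lost their calls. Over all genes, 1595 were lower and 1979 higher in that fit.

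Dim members are measured least well: Derl3 and Ddit4 lie near the filter, and Atf3 and Asns below it. GCRMA compresses differences of dim probe sets.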
